A study of Homo sapiens with 4 samples.

Results

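Cytosolic ribosomal proteins are the protein components of the ribosome that translates messenger RNA outside mitochondria. The genes were chosen by name, as symbols made of RPL or RPS and a number with an optional letter, X or L suffix, together with RPLP0 to RPLP2 and RPSA, and without pseudogenes, S6 kinases or RPS4Y genes. Each gene was read by its brightest probe set among those annotated to a single gene. This gave 57 genes, 36 of the large (60S) and 21 of the small (40S) subunit, of 19775 genes on the array. RefSeq lists 82 protein-coding genes under the same naming rule. The other 25, among them RPLP0, RPSA, RPL5 and RPS27A, had no probe set with a single gene name and were not analysed singly.

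RNA was measured on 2 arrays of PRMT6-knockout cells and 2 arrays of control cells with wild-type PRMT6, both of the AGS line, an established human gastric adenocarcinoma line. The knockout was made with a guide RNA against PRMT6 in the lentiCRISPR v2 vector, followed by puromycin and the isolation of clones by limiting dilution. The labels do not say which clone lies behind each knockout array, nor whether the control cells carried a vector or were cloned. PRMT6 methylates arginine 2 of histone H3, and the comparison asks which transcripts differ once the enzyme is disrupted. Nothing in the labels says that the 2 arrays of a group came from separate cultures, so p-values measure only the spread between these arrays.

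Ribosomal proteins are made in balanced amounts for assembly with ribosomal RNA in the nucleolus, and growing cells spend much of their transcription on them. Most of their messenger RNAs begin with a C followed by a run of pyrimidines, the 5′ terminal oligopyrimidine or TOP tract, through which the kinase complex mTORC1 and the RNA-binding protein LARP1 set how strongly they are translated. Some ribosomal proteins have duties away from the ribosome, such as RPL11, which with RPL5 and 5S RNA binds the p53 regulator MDM2. Shortage of single ribosomal proteins causes Diamond-Blackfan anaemia in humans.

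The TOP start is shown by the annotated start sites of 5 members with such a tract that did not pass the test for a difference. The 3 members that passed follow. Each line gives 40 bases before the start and 20 from it, 5′ to 3′ on the gene's own strand, from the RefSeq table of GRCh38.p14, with the start at base 41. Capitals mark a C at the start with the unbroken run of C or T that follows it.
RPS6: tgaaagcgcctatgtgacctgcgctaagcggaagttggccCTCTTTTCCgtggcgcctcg
RPS9: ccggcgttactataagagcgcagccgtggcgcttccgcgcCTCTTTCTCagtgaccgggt
RPLP1: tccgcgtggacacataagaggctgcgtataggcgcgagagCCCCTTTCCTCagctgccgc
RPL41: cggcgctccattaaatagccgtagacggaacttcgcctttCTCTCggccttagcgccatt
RPL22: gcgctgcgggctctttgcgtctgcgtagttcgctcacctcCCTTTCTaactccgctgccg
RPS4X: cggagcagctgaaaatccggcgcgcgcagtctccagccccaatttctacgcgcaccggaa
RPS27L: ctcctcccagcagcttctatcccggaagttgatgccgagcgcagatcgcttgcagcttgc
RPL10L: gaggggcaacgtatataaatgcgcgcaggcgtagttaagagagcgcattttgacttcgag
The windows lie at chr9:19380217-19380276 (minus strand) for RPS6, chr19:54200818-54200877 (plus) for RPS9, chr15:69452778-69452837 (plus) for RPLP1, chr12:56116593-56116652 (plus) for RPL41 and chr1:6199576-6199635 (minus) for RPL22. Those of RPS4X, RPS27L and RPL10L lie at chrX:72277229-72277288, chr15:63157458-63157517 and chr14:46651762-46651821, all on the minus strand. The run was 9 bases long in RPS6 and RPS9, 11 in RPLP1, 5 in RPL41 and 7 in RPL22, and was not present at the annotated start of RPS4X, RPS27L or RPL10L. No match says only that these letters do not stand at this start. The run was also absent at the annotated starts of members that did not pass and are not printed, among them RPL9, RPS15, RPL3, RPL6 and RPS7.

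A start site was held for 49 of the 57 genes, which had 56 annotated starts. The 8 genes without an entry were RPL3L, RPL7, RPL8, RPL23A, RPL30, RPL37, RPL39L and RPS15A. A C followed by 4 or more bases that are each C or T stood at an annotated start of 34 of the 49 genes, 69.4%, against 6.24% of 15843 protein-coding genes. The same run stood at 5 of 67 mitochondrial ribosomal protein genes and at 3 of 26 ribosome assembly factor genes. Counted by start, it was found at 60.7% of the 56 starts of the ribosomal protein genes and at 4.07% of all 35116 starts. Read away from the start on the opposite strand, it was found at 1.79% and 1.93% of these starts.

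Read by their brightest probe sets, transcripts of cytosolic ribosomal proteins were close to level between knockout and control cells. Of the 57 genes, 1 was higher (RPS27L) and 2 were lower (RPS4X and RPL10L) in knockout cells at an adjusted p below 0.05 in limma, and 54 did not pass. Over all genes that share was 24.0%, with 12.4% higher and 11.5% lower, against 5.26% of the ribosomal protein genes in either direction. The median difference, knockout minus control, was -0.06 on the log2 scale, beside -0.01 for all genes, and no member differed by 1.5-fold or more. The differences ranged from -0.46 to 0.34 with an SD across genes of 0.13, where the SD across all genes was 0.45. In 51 of 57 genes the size of the difference was below 0.2, against 57.7% of all genes. The low share of calls did not hold when error estimates followed intensity (28.1% of members beside 29.3% of all genes). Nor did it hold when each gene was read by its brightest gene-specific probe set instead. Of the 34 members that have one, 4 were higher and 3 lower, 20.6% beside 19.1% of all genes with such a probe set (9.63% higher and 9.48% lower). The size of the difference was then below 0.2 in 18 of 34 members, 52.9%, against 59.4% of all such genes. For some members this reading exchanged a bright probe set for a dim one. RPL37A was then read at a mean of 6.34 instead of 13.64, and RPS14 at 4.68 instead of 13.32. In the test over all probe sets, RPS4X, which has no gene-specific one, was the only member that passed with probe sets above 12. Specificity and brightness were not tested apart.

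**Figure D1:**
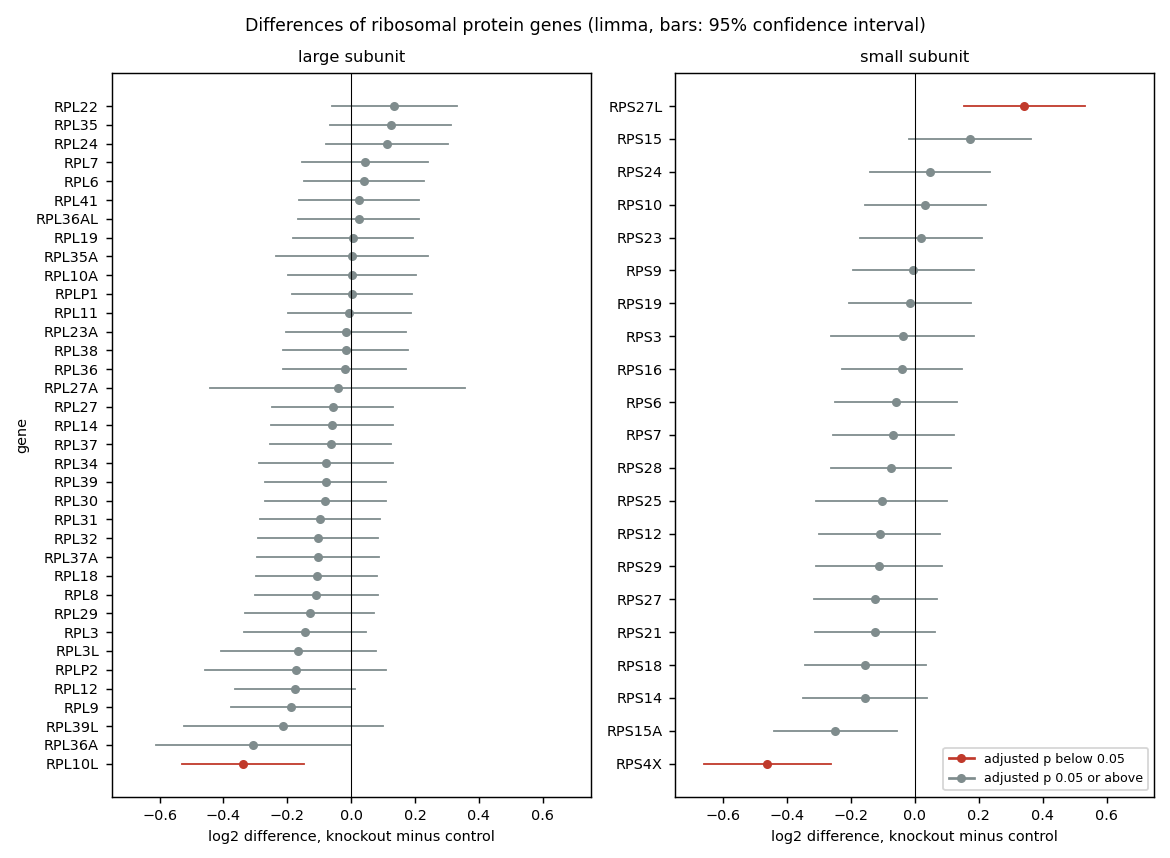
Difference between knockout and control cells (log2, x axis) for the 36 large subunit and 21 small subunit genes (y axis), with the limma 95% confidence interval as a bar; red marks an adjusted p below 0.05. RPS27L lies at 0.34, RPS4X at -0.46 and RPL10L at -0.34, and the grey genes lie between -0.31 and 0.17.

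The small differences leaned downwards. The difference was below 0 in 41 of 57 genes. Knockout and control arrays did not overlap in 44 genes, 77.2%, where the background over all genes is 58.2%. Both knockout arrays lay below both control arrays in 33 genes, 57.9% against a background of 29.1%, and above them in 11, 19.3% against 29.1%. The median over the 57 genes was 13.10 and 13.15 on the knockout arrays and 13.18 and 13.20 on the control arrays. Before adjustment, 6 genes had a p below 0.05: RPS4X, RPS27L, RPL10L, RPS15A, RPL36A and RPL9. The 95% confidence interval lay within 0.5 of 0 on the log2 scale for 52 of the 57 genes.

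The number of falls, and the direction of some members, depended on how arrays were scaled. With each array shifted to the same mean of 13 reference genes, 0 members were higher and 51 lower, where 5.10% of all genes were higher, 56.1% lower and 61.2% in either direction, and the median of all genes was -0.34. The members' median was then -0.40. With arrays shifted to the same median of 938 other bright genes, 1 member was higher and 3 were lower, beside 10.5% and 13.7% of all genes (24.2% together). Among the 9887 brighter genes alone, 1 of 53 members was higher and 3 were lower, beside 30.3% and 26.0% (56.3% together).

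Brightness and the agreement of arrays were also measured. The probe sets were bright, and 51 of the 57 had a mean above 12 on the log2 scale, a level reached by 1.09% of genes, and the brightest value on any array was 14.16. Brightness depends on the probes as well as the transcript, and a compression of differences near the top of the scale was not tested. Among the 165 other genes with a mean above 12, 49.1% passed the test, 48 higher and 33 lower. GAPDH, a glycolytic enzyme, had 13.64 and 13.66 in knockout cells against 13.27 and 13.32 in control cells, and EEF2, an elongation factor, had 12.79 and 12.82 against 13.23 and 13.16. The calls of both ended when any array was omitted, and under reference gene scaling GAPDH, itself on that list, did not pass (adjusted p = 0.87). The arrays of a group lay close together at this brightness. The median standard error (SE) of the 57 genes was 0.08 with the common prior variance and 0.04 when the prior followed intensity. With that intensity trend 4 genes were higher and 12 lower, 28.1% of members beside 29.3% of all genes, of which 15.7% were higher and 13.6% lower. The higher ones were RPS27L, RPS15, RPL22 and RPL35, and the lower ones RPS4X, RPS15A, RPL9, RPL12, RPS14, RPS18, RPL3, RPS21, RPS27, RPS12, RPL18 and RPL32. RPL10L then lost its call (adjusted p = 0.059, limma).

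RPS4X is a protein of the body of the small subunit whose gene lies on the X chromosome and escapes X inactivation in humans. Its log2 intensity was 13.28 and 13.20 on the knockout arrays, against 13.72 and 13.68 on the control arrays, so both knockout arrays lay below both control arrays. The transcript averaged 13.24 ± 0.05 in knockout cells and 13.70 ± 0.03 in control cells (SD, n = 2 each). RPS4X thus fell by 0.46 log2 units, or 1.38-fold, in knockout cells (SE 0.08, adjusted p = 0.013 in limma), and the 95% confidence interval ran from -0.66 to -0.26. A further probe set of the gene read 13.05 and 13.04 in knockout cells against 13.56 and 13.55 in control cells. Both probe sets are of a kind that can bind related sequences, and RPS4X has none of the gene-specific kind, so reads from copies of the gene cannot be told apart. Omitting each array in turn gave differences of -0.50 to -0.42, and the call ended. Such fits hold a single array in 1 group, which leaves less power for any gene.

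The other members on the X chromosome were RPL39 and RPL36A. RPL39, which lines the exit tunnel for the growing peptide, had 13.44 and 13.44 in knockout cells against 13.51 and 13.54 in control cells. Its difference of -0.08 (SE 0.07) did not pass the test. RPL36A, a large subunit protein, was read by 1 dim probe set at 4.31 and 4.19 against 4.69 and 4.42, a difference of -0.31 (SE 0.12, adjusted p = 0.14).

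RPS27L is a paralog of the small subunit protein RPS27 and is a known target of p53 in human cells. It had 12.60 and 12.57 in knockout cells against 12.24 and 12.24 in control cells, with no overlap. RPS27L thus rose by 0.34 log2 units, or 1.27-fold (SE 0.07, adjusted p = 0.028 in limma), and the 95% confidence interval ran from 0.15 to 0.53. Its other probe sets had means of 9.12 and 8.26 and gave 0.24 and 0.82, of which the second passed the test over all probe sets. In that test the brightest probe set, which carries the rise, did not pass (adjusted p = 0.063). RPS27 itself had 13.66 and 13.61 in knockout cells against 13.74 and 13.78 in control cells, a difference of -0.12 that did not pass. Omitting each array in turn ended the RPS27L call (adjusted p 0.086 to 0.16). So did a shift of each array to the same mean over common reference genes (0.01, adjusted p = 0.95).

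RPL10L is an intronless paralog of RPL10 used in the testis. Its probe set read 5.12 and 5.07 in knockout cells against 5.43 and 5.43 in control cells. The gene fell by 0.34 (SE 0.08, 1.26-fold, adjusted p = 0.029 in limma), at a level below that of the median gene, 5.97. Detection calls were not used here, so it is not known whether these values exceed background. Without single arrays the call was lost (adjusted p 0.091 to 0.18).

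The remaining paralogs of the L type did not pass the test. RPL36AL, a broadly expressed paralog of RPL36A, had 12.28 and 12.32 in knockout cells against 12.27 and 12.27 in control cells. The muscle paralog RPL3L had 3.95 and 4.07 against 4.26 and 4.10, and RPL39L, known from mouse male germ cells, had 3.22 and 3.21 against 3.27 and 3.59. RPL3L and RPL39L lay far below the median gene, further than RPL10L. Of the 3 paralogs whose symbols end in L1, which lie outside the 57 genes, RPL26L1 had 9.81 and 9.91 in knockout cells against 9.58 and 9.49 in control cells and rose by 0.32 (SE 0.09, adjusted p = 0.049 in limma). Under reference gene scaling its difference was -0.01, and omitting any array ended the call (adjusted p 0.090 to 0.25). RPL7L1 (0.17) and RPL22L1 (0.10) did not pass.

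**Figure D2:**
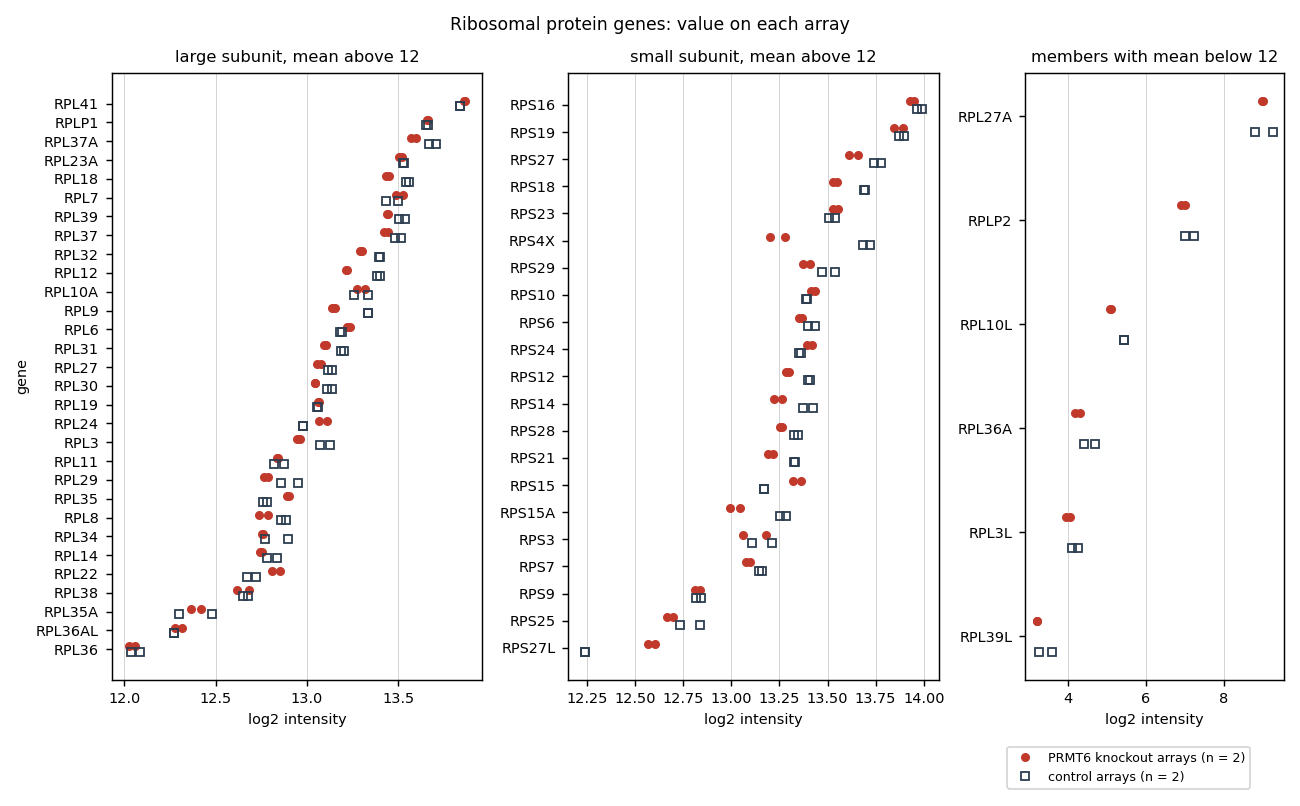
Log2 intensity (x axis) of each ribosomal protein gene (y axis) on the 2 knockout arrays (red circles) and the 2 control arrays (open squares), split into large subunit genes and small subunit genes with a mean above 12 and the 6 genes below it. RPS4X stands out on the low side at 13.20 to 13.28 in knockout cells and 13.68 to 13.72 in control cells, and RPS27L on the high side.

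In the large subunit 0 of 36 genes rose and RPL10L was the only 1 that fell, beside 12.4% and 11.5% of all genes. With the intensity trend RPL22 and RPL35 rose, and RPL9, RPL12, RPL3, RPL18 and RPL32 fell, beside 15.7% and 13.6%. The stalk, which recruits the elongation factors, was represented by RPLP1 and RPLP2. RPLP1 had 13.66 and 13.66 in knockout cells against 13.66 and 13.65 in control cells, a difference of 0.00 (95% confidence interval -0.19 to 0.19). RPLP2, read by a dimmer probe set, had 7.00 and 6.89 against 7.00 and 7.25, with overlap. RPL12, at the base of the stalk, had 13.22 and 13.22 in knockout cells against 13.40 and 13.39 in control cells, and RPL9 nearby had 13.14 and 13.15 against 13.33 and 13.33. The arrays of these genes did not overlap, but the differences of -0.18 and -0.19 (SE 0.07 each) did not pass (adjusted p = 0.16 and 0.14, limma).

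RPL11, the partner of RPL5 in the complex with 5S RNA that binds MDM2, had 12.84 and 12.84 in knockout cells against 12.82 and 12.87 in control cells. Its confidence interval of -0.20 to 0.19 bounds the difference. Of the proteins that line the peptide tunnel or surround its exit, 6 of 9 listed genes were measured: RPL19, RPL22, RPL23A, RPL31, RPL35 and RPL39. None passed, beside 24.0% of all genes, and their differences ranged from -0.10 to 0.14. RPL22 and RPL35 passed with the intensity trend, beside 29.3% of all genes. RPL22, an RNA-binding protein also needed for T cell development in mice, had 12.81 and 12.85 in knockout cells against 12.67 and 12.72 in control cells. RPL35 had 12.89 and 12.90 against 12.76 and 12.78. RPL24, a protein of the face that meets the small subunit, had 13.07 and 13.11 against 12.98 and 12.98. Knockout arrays lay above control arrays for these 3 genes, with differences of 0.14, 0.12 and 0.11.

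Differences of RPL3, which lies near the peptidyl transferase centre, RPL29, RPL8, RPL18, RPL37A, RPL32 and RPL30 ran from -0.15 to -0.08, with knockout arrays below control arrays in each. The same order held at -0.08 to -0.06 for RPL34, RPL37, RPL14 and RPL27. RPL10A and RPL38, each linked in mice to the translation of chosen messages, were at 0.00 and -0.02, and RPL23A, RPL36, RPL35A, RPL19, RPL41, RPL6 and RPL7 lay between -0.02 and 0.04. RPL27A, read at 8.99 and 8.97 in knockout cells against 8.80 and 9.25 in control cells, had the widest interval of the 57 genes, -0.44 to 0.36.

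In the small subunit, RPS27L rose, RPS4X fell and 19 of 21 genes did not pass. Over all genes 12.4% rose and 11.5% fell. RPS15A, of the body, had 13.04 and 12.99 in knockout cells against 13.25 and 13.28 in control cells. Its difference of -0.25 (SE 0.08) was the next largest in this subunit and did not pass (adjusted p = 0.075, limma). RPS15, at the head near the decoding site, had 13.32 and 13.36 against 13.17 and 13.17, a difference of 0.17 (adjusted p = 0.18). Both genes had knockout arrays apart from control arrays, in opposite directions.

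RPS6, the protein phosphorylated by S6 kinases downstream of mTORC1, had 13.37 and 13.35 in knockout cells against 13.40 and 13.44 in control cells. The difference was -0.06 (95% confidence interval -0.25 to 0.13). RPS14, lost in the 5q- syndrome, had 13.22 and 13.27 against 13.37 and 13.42 (-0.16), and RPS18 had 13.55 and 13.53 against 13.69 and 13.70 (-0.15). Among the 10 measured genes of the head, 0 passed, with a median of -0.06. Of the 10 measured genes of the body, RPS4X alone passed and the median was -0.10. Over all genes 24.0% passed. With the intensity trend RPS15, RPS18 and RPS12 of the head passed, beside 29.3% of all genes. RPS14, RPS15A, RPS21 and RPS27 of the body then passed as well. RPS21, RPS29, RPS12, RPS25, RPS28, RPS7 and RPS16 lay between -0.13 and -0.04 with knockout arrays below control arrays. RPS3, RPS19, RPS9 and RPS23 overlapped between groups and lay between -0.04 and 0.02. RPS10 and RPS24 were at 0.03 and 0.05.

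Of 18 listed genes linked to Diamond-Blackfan anaemia, 13 were measured and 0 passed, beside 24.0% of all genes, while under reference gene scaling 12 were lower, beside 56.1%. Their differences ran from -0.12 for RPS27 to 0.12 for RPL35. With the intensity trend RPL35, RPS27 and RPL18 passed, beside 29.3% of all genes. RPS19, the gene most often affected in that disease, had 13.85 and 13.89 in knockout cells against 13.87 and 13.89 in control cells. FAU, whose product carries the small subunit protein RPS30 under another name, had 12.53 and 12.57 against 12.54 and 12.53.

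The annotated start sites were set beside the differences. The 34 genes with a pyrimidine run at an annotated start had differences of -0.31 to 0.14 with a median of -0.05, and 0 passed the test. The 15 without it had -0.46 to 0.34 with a median of -0.07, and held RPS27L, RPS4X and RPL10L, which passed. Over all genes 24.0% passed. With the intensity trend, RPL22, RPL35, RPL12, RPS14, RPS18, RPS21, RPS27, RPS12 and RPL18, all with the run, passed too. Of the genes without it, RPS27L, RPS4X, RPS15, RPL9, RPL3 and RPL32 passed there, beside 29.3% of all genes. These are descriptions of annotated starts, and the difference between the sets was not tested.

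Bright probe sets of a gene gave close values, while some dim ones differed from them. In all, 118 probe sets were annotated to the 57 genes, and 34 genes had several. For the 14 genes with more than 1 probe set above 12, the probe sets of a gene differed from each other by a median of 0.02 and at most 0.10 in their knockout minus control difference. The 3 bright probe sets of RPS6 gave -0.06, -0.06 and -0.07, and those of RPL22 gave 0.14, 0.12 and 0.14. The 2 dimmer RPL22 probe sets, with means of 10.42 and 10.23, gave -0.11 and -0.06. None of these passed.

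Of the 69 probe sets above 12, 0 were higher and 2 were lower when all 54613 probe sets were tested together, both of RPS4X, beside 13.1% of all probe sets in either direction. Of the 39 probe sets at 8 or below, 4 were higher and 3 lower, and their differences spread from -0.89 to 0.80. RPL37 had dim probe sets at -0.64, -0.89 and 0.33, the first 2 of which passed, while its probe set with a mean of 13.47 gave -0.06. RPL37A had 1 at 0.80 against -0.10, RPL7 had 0.55 against 0.04, RPS14 had 0.55 against -0.16, RPS29 had 0.46 against -0.11, and RPS6 had -0.67 against -0.06. The dim and bright probe sets of these genes therefore gave different values, and which parts of the transcripts or introns the dim ones read was not analysed here. The dim ones that passed were of the gene-specific kind, so brightness and kind cannot be told apart here.

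**Figure D3:**
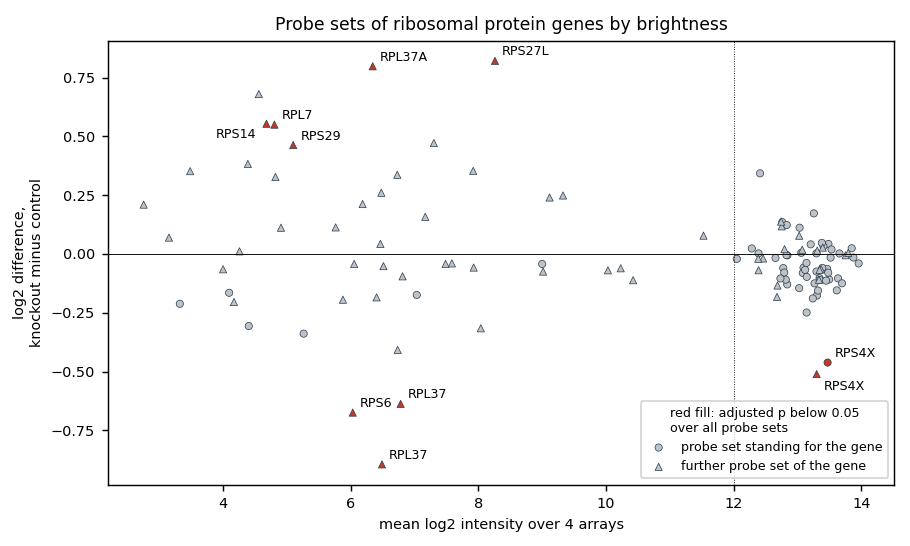
Knockout minus control difference (log2, y axis) of the 118 probe sets of ribosomal protein genes against their mean log2 intensity over the 4 arrays (x axis); circles stand for the gene, triangles are further probe sets, and red fill marks an adjusted p below 0.05 over all probe sets. Probe sets above 12 lie between -0.51 and 0.34, and those at 8 or below between -0.89 and 0.80.

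A further 64 probe sets list a ribosomal protein gene together with other genes, mostly small nucleolar RNAs encoded in its introns, so no gene was named from them. Of the 64, 6 were higher and 2 lower in the test over all probe sets, 12.5% beside 13.1% of all probe sets. Within the 64, 45 had a mean above 12, with a median difference of -0.07, 0 higher and 1 lower.

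The wider machinery of ribosome production was read from gene lists. Ribosome assembly factors process and fold ribosomal RNA and load the proteins onto it. Of 32 measured assembly factors, 21 rose and 0 fell, beside 12.4% of all genes rising, and the list median was 0.41. MRTO4, which prepares the site of the stalk, had 9.48 and 9.62 in knockout cells against 8.71 and 8.52 in control cells and rose by 0.93 (SE 0.10, adjusted p = 0.0039 in limma). NOP16 rose by 0.77 (SE 0.10), BYSL, a 40S assembly factor, by 0.68 (SE 0.09), and UTP20 by 0.66 (SE 0.15). With reference gene scaling, which moved the median of all genes to -0.34, 8 rose, 4 fell and the list median was 0.08, where 5.10% of all genes rose and 56.1% fell. UTP20 did not pass there. Leaving out a single array left 0 to 9 rises.

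The ribosomal proteins of mitochondria, nuclear genes that build a separate ribosome, rose in 45 of 75 cases, beside 12.4% of all genes, and MRPS10 (-0.31) fell, beside 11.5%. The MRPS10 call ended when any array was omitted (adjusted p 0.0999 to 0.24). The list median was 0.36. MRPS7 averaged 10.05 ± 0.03 (SD, n = 2 each) in knockout cells against 9.09 ± 0.13 in control cells and rose by 0.96 (SE 0.09, adjusted p = 0.0028 in limma). MRPL27 rose by 0.93, MRPL12 by 0.93 and MRPL16 by 0.90. Under reference gene scaling 16 rose and 9 fell, beside 5.10% and 56.1% of all genes, and the median was 0.02, and with single arrays left out 0 to 26 rose. Cytosolic ribosomal protein genes had 1 rise among 57 beside these counts, and the difference between the sets was not tested.

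**Figure D4:**
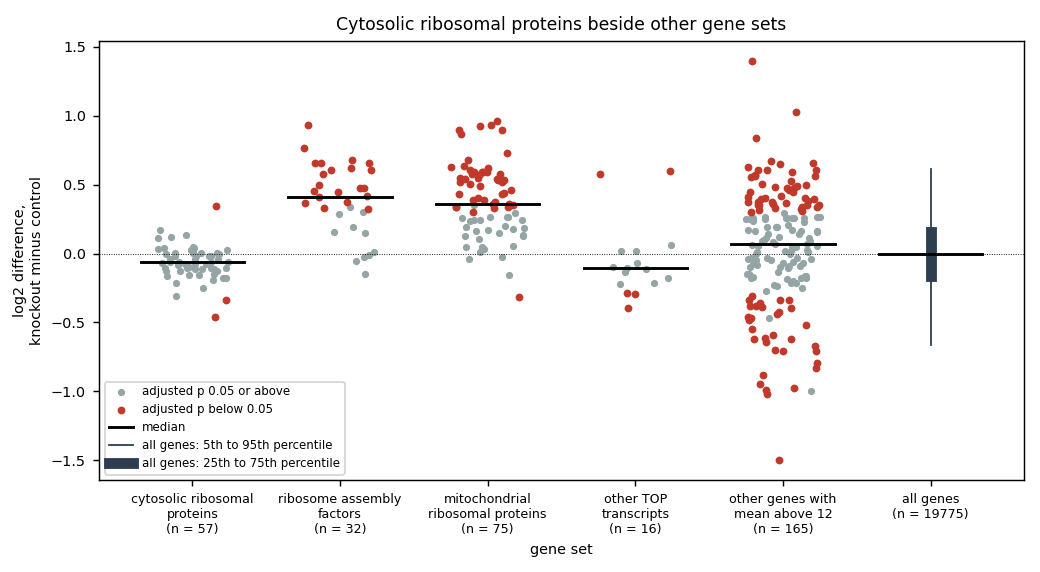
Knockout minus control difference (log2, y axis) of single genes in 5 gene sets (x axis), red where the adjusted p is below 0.05, with the median as a black line and the percentiles of all 19775 genes at the right. The median is -0.06 for cytosolic ribosomal proteins, 0.41 for assembly factors, 0.36 for mitochondrial ribosomal proteins and -0.11 for other TOP transcripts.

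Other transcripts of the TOP class were mixed. Of 16 measured, 2 rose and 3 fell, with a median of -0.11, beside 12.4% and 11.5% of all genes. Under reference gene scaling 1 rose and 14 fell, with a median of -0.45, and with single arrays left out 0 to 1 rose and 0 fell. IMPDH2, an enzyme of guanine nucleotide synthesis, rose by 0.58 (SE 0.08). The filament protein VIM rose by 0.60 (SE 0.10), though averaging its probe sets ended that call (0.19, adjusted p = 0.24). EEF2 fell by 0.39 (SE 0.08) and EIF4B (-0.29) also fell. Both calls ended when any array was omitted (adjusted p 0.064 to 0.14 for EEF2 and 0.10 to 0.22 for EIF4B). NAP1L1, a histone chaperone, fell by 0.30 (SE 0.07), but its brightest gene-specific probe set gave 0.74 in the opposite direction. EIF4B was named after its values were seen.

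Of 14 genes of RNA polymerase I, which transcribes the large ribosomal RNAs, and its factors, TAF1D (0.95), POLR1C (0.40) and POLR1G (0.37) rose and TAF1A (-1.68, SE 0.08) fell, with a median of 0.10, beside 12.4% of all genes rising and 11.5% falling. TAF1A and TAF1D belong to the selectivity factor that brings the polymerase to its promoter. TAF1A had 6.06 and 6.17 in knockout cells against 7.81 and 7.79 in control cells. Under reference gene scaling 1 gene rose and 6 fell, and POLR1C (0.06) and POLR1G (0.04) did not pass. With single arrays left out 0 to 2 rose and 1 fell, and the calls of POLR1C and POLR1G ended in each case.

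Of 17 genes of mTORC1, LARP1 and MYC control, 3 rose and 6 fell, beside 12.4% and 11.5% of all genes. Under reference gene scaling 1 rose and 9 fell, with a median of -0.40, and with single arrays left out 0 to 2 rose and 2 to 5 fell. AKT1S1, an mTORC1 inhibitor also known as PRAS40, had 7.91 and 7.80 in knockout cells against 6.97 and 6.72 in control cells and rose by 1.01 (SE 0.11, adjusted p = 0.0038 in limma). The mTOR inhibitor DEPTOR fell by 2.63 (SE 0.08), the stress-induced mTORC1 inhibitor DDIT4 fell by 2.44 (SE 0.13) and the translation repressor EIF4EBP1 fell by 1.08 (SE 0.13). SESN2, a leucine sensor, also fell, with 7.57 and 7.73 in knockout cells against 9.29 and 9.01 in control cells. DDIT4 had 9.72 and 10.04 in knockout cells against 12.29 and 12.34 in control cells. MYC, a transcription factor that drives ribosome genes, had 10.91 and 10.95 against 10.54 and 10.35 and rose by 0.49 (SE 0.09). Under reference gene scaling MYC did not pass (0.15, adjusted p = 0.20), and 3 of the 4 omissions of an array ended its call. LARP1 (-0.06) did not pass, but was called lower under reference gene scaling (-0.40). AKT1S1, MYC and LARP1 were named after their values were seen.

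PRMT6 itself had 7.79 and 7.63 in knockout cells against 8.03 and 8.11 in control cells and fell by 0.36 (SE 0.09, adjusted p = 0.043 in limma), a call that ended when any array was omitted. Whether its probe set lies in the edited part was not analysed here. Of 19775 genes, 2459 rose and 2281 fell. Across probe sets, knockout arrays correlated with each other at a Pearson's r of 0.996, control arrays at 0.995, and arrays of different groups at 0.981 to 0.984. The epithelial markers KRT8, KRT18, KRT19 and EPCAM had means of 12.10 to 13.25. Of 7 epithelial markers 4 rose and 1 fell, beside 12.4% and 11.5% of all genes. Single values of the fibroblast markers ran from 3.44 to 5.47 in knockout cells and 2.25 to 5.77 in control cells. LUM (1.37) and COL3A1 (1.02) were higher among the 6. Their means of 3.07 and 3.29 lay far below the median gene, 5.97, and whether they exceed background is not known. None of 5 blood or 4 endothelial markers passed, beside 24.0% of all genes. The part of these markers in the ribosomal protein values was not tested.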

How the data were processed

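The authors deposited log2 intensities of 54613 probe sets on 4 arrays, made with RMA and the affy package per the submitters' processing notes, with no version. RMA quantile-normalizes arrays, so each difference is relative to the other transcripts. The array count limits the precision. Of the probe sets, 41091 had 1 gene symbol, 1801 several and 11721 none; symbols were updated through the RefSeq table of GRCh38.p14 (41037 matched). Each of 19775 genes was represented by its brightest single-gene probe set.

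The test was limma 3.58.1 under R 4.3.3, with lmFit and eBayes on all 4 arrays and no covariates (2 residual degrees of freedom, 3.27 from the prior). P-values were adjusted over all genes by the method of Benjamini and Hochberg, and 0.05 was the threshold. The fit was tested on simulated data. The members and the gene lists were chosen with earlier results of these data known. Every member could be named; of other lists, up to 4 called genes with the largest change, with PRMT6, FAU and the L1 paralogs. GAPDH, MRPS10, KRT18 and EPCAM were named after their values were seen.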

Additional observations from a re-analysis of the deposited data

How the results depend on the processing

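The 1 higher and 2 lower ribosomal protein genes and their median of -0.06 were recomputed under 14 alternatives. Shifting each array to equal means of 13 reference genes gave 0 higher and 51 lower with a median of -0.40, where 56.1% of all genes were lower and the median of all genes moved to -0.34. Under that scaling RPL10A (-0.34), RPL19 (-0.33), RPL35A (-0.34), RPL36AL (-0.31), RPL41 (-0.31), RPL6 (-0.30), RPL7 (-0.29), RPLP1 (-0.34), RPS10 (-0.30), RPS23 (-0.32), RPS24 (-0.29), FAU (-0.33) and RPL22L1 (-0.23) turned to called falls, and RPL26L1 was -0.014. The shift comes from the reference genes, of which 7 of 13 rose on the deposited scale, beside 12.4% of all genes. Equal medians of 938 other bright genes gave a median of -0.12 with 1 higher and 3 lower. An intensity trend gave 4 higher and 12 lower through its smaller errors, while the 9887 brighter genes alone gave 1 and 3. Means of probe sets gave a median of -0.033. Gene-specific probe sets, held by 34 members and dimmer for some of them, gave 4 higher and 3 lower (20.6%, beside 19.1% of all such genes). RPL37A at 0.80 and RPS14 at 0.55, both read by dim probe sets, were reversed. NAP1L1 was 0.74 there and 0.081 with means of probe sets. Testing all probe sets together gave 0 higher and 1 lower. Adding the L1 paralogs gave 2 higher. The 64 probe sets listing several genes, an alternative added after seeing the data, gave 6 higher and 2 lower (12.5%, beside 13.1% of all probe sets). With single arrays left out the members' medians ran from -0.08 to -0.05, and the calls of RPS4X, RPS27L and RPL10L ended. The lone array of a group is then assumed to vary like the other group. The share of all genes that kept a call is not given, so these lost calls do not set the members apart. Replicate numbers did not pair the arrays (correlation of deviations 0.05 across genes); with the replicate block 0 were higher and 1 was lower, with a median of -0.06. PRMT6 lost its call with the block, with gene-specific probe sets and over all probe sets. Detection calls were not used, which limits what can be said of RPL10L, RPL3L, RPL39L and RPL36A.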
